A study of Mus musculus with 18 samples.

Results

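CD3+CD8- leukocytes were compared with CD3-CD8- leukocytes of untreated tumour-bearing livers, with 3 libraries of each fraction out of 18 libraries in the series. The 6 libraries were chosen by their labels for treatment and cell type, and 12719 of 48440 gene identifiers in the count table had enough counts to be tested. All cells came from livers of wild-type C57BL/6J mice, 7 weeks of age at purchase, in which tumours had been raised by hydrodynamic tail vein injection of Ras and Myc oncogenes, a method that carries DNA into hepatocytes under pressure. CD45+ cells, that is, leukocytes, were sorted as CD3+CD8- or as CD3-CD8-, and these mice carried the label "no" for treatment. Treated mice, used here for side-by-side values, also had oncogene-induced liver tumours and are labelled as given poly(I:C), which mimics viral RNA, at 4 mg/kg and 200 µg of an antibody against PD-L1, in 6 intraperitoneal doses. The dosing notes of all libraries name an antibody against VEGF-A as well, which the treatment label of no library names. The labels give neither the oncogene forms, nor a promoter, nor the number of animals behind a library, nor whether untreated mice received a vehicle. P-values therefore measure the spread between these libraries, which may be partly technical.

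CD3 is the signalling part of the T cell receptor, and CD8 is the coreceptor of killer T cells. A CD3+CD8- gate of liver can hold CD4 helper and regulatory T cells, natural killer T cells and gamma-delta T cells. A CD3-CD8- gate can hold B cells, natural killer (NK) cells, monocytes, neutrophils, dendritic cells and Kupffer cells, the resident macrophages of liver. These are bulk libraries, so fewer cells of a type and less RNA per cell cannot be told apart.

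The sort was checked on its own transcripts. Levels are CPM, counts divided by the library size after TMM scaling, in the order replicate 5, 18 and 6 for CD3+CD8- cells and replicate 1, 5 and 18 for CD3-CD8- cells. Cd3e, a chain of CD3, had 246, 142 and 297 CPM in CD3+CD8- cells, against 150, 172 and 77.2 CPM in CD3-CD8- cells. The groups overlapped, and the log2 fold change of CD3+CD8- over CD3-CD8- cells was 0.78 ± 0.38 (SE) with an edgeR adjusted p of 0.371. Cd247, the zeta chain of the complex, had 247, 163 and 267 CPM in CD3+CD8- cells, against 104, 116 and 67.7 CPM in CD3-CD8- cells. Its groups did not overlap, and its log2 fold change was 1.24 ± 0.30 (edgeR adjusted p = 0.0887). CD3 transcripts were thus present in all 3 libraries labelled CD3-CD8-. The cell type label of these libraries reads CD45+,CD3-,CD8-, and whether the sort took all CD45+ cells was not tested. Each fold change below is thus against libraries that also carry T cell transcripts. The libraries labelled CD3+CD8- in turn carried transcripts of cells that a CD3+ gate should leave out. Summed neutrophil genes had 5528, 21660 and 8493 CPM there, against 371, 386 and 1540 CPM in the libraries labelled CD3-CD8-. A gene higher in CD3+CD8- cells below is therefore not thereby a T cell gene. Cd8a, the alpha chain of CD8, had 6.74, 9.06 and 879 CPM in CD3+CD8- cells, against 246, 395 and 90.4 CPM in CD3-CD8- cells. Cd8b1, the beta chain, had 26.4, 22.0 and 754 CPM in CD3+CD8- cells, against 126, 240 and 59.3 CPM in CD3-CD8- cells. The library labelled CD3+CD8- replicate 6 therefore carried more of both CD8 transcripts than any other of the 6, and its letter code also differs from that of the other 5, with a meaning the labels do not state. Without it, Cd8a fell by 4.99 on the log2 scale in CD3+CD8- cells (edgeR adjusted p = 0.0284), and Cd8b1 had a log2 fold change of -2.57 (edgeR adjusted p = 0.0618). Ptprc, which encodes CD45, had 2917, 3434 and 2007 CPM in CD3+CD8- cells, against 1951, 1785 and 1723 CPM in CD3-CD8- cells.

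**Figure D1:**
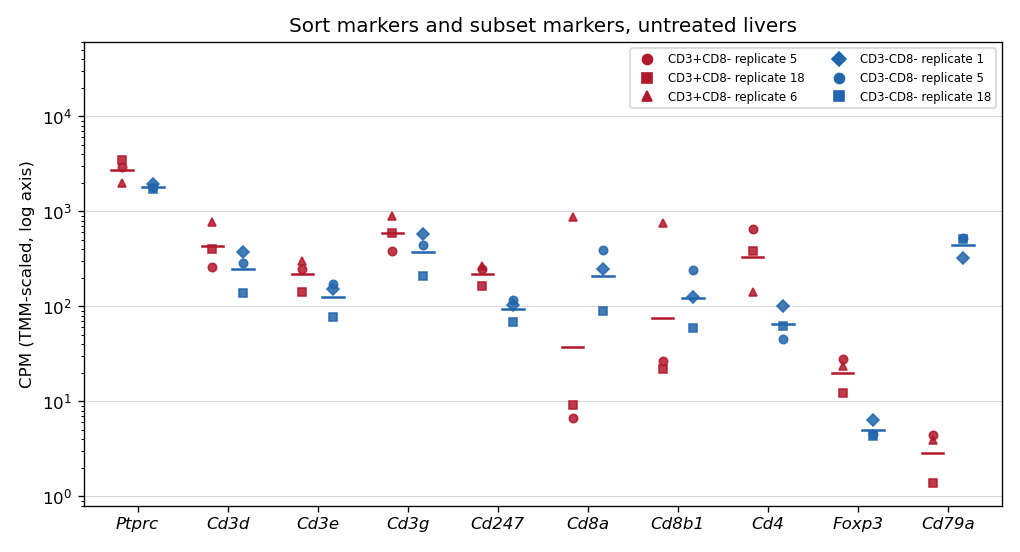
Level of each sort or subset marker in every library, in CPM after TMM scaling on a log axis, with CD3+CD8- cells in red and CD3-CD8- cells in blue; points are libraries, triangles are CD3+CD8- replicate 6 and bars are geometric means of 3. Cd79a and Foxp3 separate the groups, Cd3e does not, and CD3+CD8- replicate 6 stands at 879 CPM of Cd8a.

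Total counts were 4455533, 3571164 and 1829155 in CD3+CD8- cells, against 10361522, 26835919 and 10066700 in CD3-CD8- cells. A count of 3 corresponded to 0.532 to 1.67 CPM in CD3+CD8- cells and to 0.0992 to 0.359 CPM in CD3-CD8- cells, so a low level was less sharply measured in CD3+CD8- cells. Mitochondrially encoded genes took 33.6% and 30.8% of counts in CD3+CD8- replicate 18 and CD3-CD8- replicate 18, and between 4.63% and 12.3% in the other 4 libraries. CD3+CD8- replicate 18 also stood apart by base composition: its GC-rich genes lay on average 1.113 log2 units below their mean over the 6 libraries.

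Of the 12719 genes, 293 (2.3%) differed at an edgeR adjusted p below 0.05, the threshold for calling a gene here. Of these, 114 (0.896%) were higher and 179 (1.41%) lower in CD3+CD8- cells. Without CD3+CD8- replicate 6, 777 of 13886 genes (5.6%) were called, with 384 (2.77%) higher and 393 (2.83%) lower. The fits shared 272 calls, all with the same sign, which is 92.8% of the calls with all 6 libraries and 35% of those without replicate 6. Leaving out any other library lowered the count: to 95 without CD3+CD8- replicate 5, 163 without CD3+CD8- replicate 18, and to 112, 70 and 140 without CD3-CD8- replicates 1, 5 and 18. No call reversed its sign in any of these fits. Over all genes tested, DESeq2 called 974 of 12719, limma voom 790 of 12719 and limma on log2(FPKM + 1) 242 of 11994. Counts from these tools within a list are to be read beside those. The number of all genes at an unadjusted p below 0.05 is not given for this comparison, so list counts at that level lack a share to set them against. The 3 CD3+CD8- libraries all lay above the 3 CD3-CD8- libraries for 1400 genes (11%) and all lay below them for 1538 genes (12.1%). By class, antigen receptor segments made up 3 of the calls that were higher and 22 of those that were lower in CD3+CD8- cells. Segments of 1 family, and close copies such as Ly6c1 and Ly6c2, H2-DMb1 and H2-DMb2 or the Klra genes, can share reads, so the split between such genes is uncertain. Whether counting used strand is not stated.

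**Figure D2:**
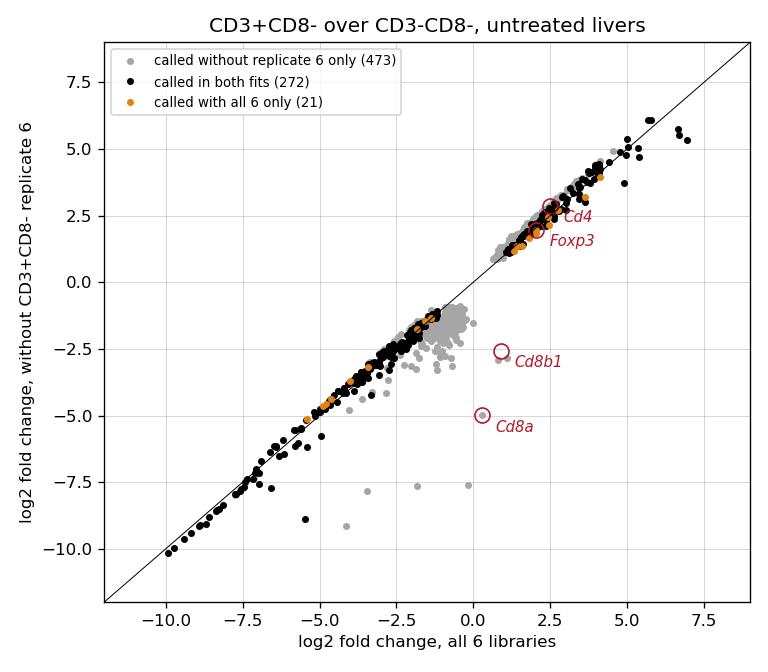
log2 fold change of CD3+CD8- over CD3-CD8- cells with all 6 libraries (x axis) and without CD3+CD8- replicate 6 (y axis), for genes called in either fit and tested in both, with 4 marker genes circled whether called or not. 272 genes were called in both, 473 without replicate 6 alone and 21 with all 6 alone, and Cd8a and Cd8b1 lie far below the line of equal values.

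Genes of helper and regulatory T cells had the highest list medians among the T lineage lists other than those of receptor segments. Cd4, the coreceptor of helper T cells, had 653, 378 and 141 CPM in CD3+CD8- cells, against 101, 45.6 and 61.9 CPM in CD3-CD8- cells. All 3 CD3+CD8- libraries were higher, but replicate 6 had the least, and the log2 fold change of 2.50 ± 0.57 missed the threshold with all 6 libraries (edgeR adjusted p = 0.0768) and passed it without replicate 6 (2.88, adjusted p = 0.0258). Foxp3, the transcription factor that defines regulatory T cells, had 27.7, 12.2 and 23.3 CPM in CD3+CD8- cells, against 6.395, 4.56 and 4.30 CPM in CD3-CD8- cells. It rose by 2.05 ± 0.38 on the log2 scale (edgeR adjusted p = 0.0427) and its groups did not overlap. Of the 6 fits that leave out a library each, Foxp3 was called in 1, that without CD3+CD8- replicate 18, with adjusted p between 0.0245 and 0.228 over all of them and 0.0513 without replicate 6.

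Of 15 regulatory T cell genes tested of 17 listed, 3 rose and 0 fell, with 12 positive and 3 negative log2 fold changes. Without overlap, 7 lay above and 1 below. The median log2 fold change was 1.45, beside -0.01 over all genes tested. Besides Foxp3, the called members were Ikzf2 and Gpr83, a receptor found on regulatory T cells. Ikzf2, which encodes the transcription factor Helios, had a log2 fold change of 1.92 ± 0.38 (edgeR adjusted p = 0.0488). Gpr83 had 4.44, 2.09 and 6.11 CPM in CD3+CD8- cells, against 0.556, 0.463 and 0.478 CPM in CD3-CD8- cells, a log2 fold change of 3.03 ± 0.52 (adjusted p = 0.0313). Ctla4, an inhibitory receptor of regulatory and activated T cells, had 74.5, 49.5 and 47.2 CPM in CD3+CD8- cells, against 24.3, 17.2 and 7.89 CPM in CD3-CD8- cells, without overlap and with an adjusted p of 0.0815. Il2ra, the high-affinity interleukin 2 receptor chain, overlapped, at 40.6, 97.9 and 24.4 CPM in CD3+CD8- cells against 52.5, 17.2 and 36.4 CPM in CD3-CD8- cells. The list had 3 called members and a median of 1.45 without CD3+CD8- replicate 6, 2 without CD3+CD8- replicate 18 and 0 without any of the other 4 libraries.

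The 7 genes of helper identity had 2 called members, Cd28 and Tnfsf8, both higher, and a median log2 fold change of 1.69. Cd28, the costimulatory receptor for CD80 and CD86, had 284, 294 and 166 CPM in CD3+CD8- cells, against 91.7, 61.5 and 44.3 CPM in CD3-CD8- cells, a log2 fold change of 1.91 ± 0.35 (edgeR adjusted p = 0.0408). Tnfsf8, which encodes the CD30 ligand, had 65.6, 74.6 and 78.9 CPM in CD3+CD8- cells, against 22.3, 17.3 and 7.89 CPM in CD3-CD8- cells (2.195 ± 0.374, adjusted p = 0.0313). Neither gene overlapped between the fractions. Without CD3+CD8- replicate 6, 3 members were called and the median was 1.74. Cd28 kept its call when CD3+CD8- replicate 6 was left out and lost it in each of the other 5 fits, and Tnfsf8 kept it without CD3+CD8- replicate 6 or CD3-CD8- replicate 18. Cd40lg, the helper signal to B cells, overlapped, with 60.5, 60.6 and 8.33 CPM in CD3+CD8- cells against 31.6, 9.12 and 13.3 CPM in CD3-CD8- cells.

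Some transcription factors and surface genes of naive and memory T cells were also higher in CD3+CD8- cells. Tcf7, which encodes TCF-1, a factor that T cells need to form and to stay naive or memory-like, had 487, 294 and 374 CPM in CD3+CD8- cells, against 113, 98.7 and 77.8 CPM in CD3-CD8- cells. It rose by 1.998 ± 0.281 on the log2 scale (edgeR adjusted p = 0.0171). Its partner Lef1 had 120, 77.4 and 83.3 CPM in CD3+CD8- cells, against 25.2, 20.9 and 18.3 CPM in CD3-CD8- cells (2.13 ± 0.25, adjusted p = 0.00842). Neither overlapped. Lef1 stayed called in 5 of the 6 fits with a library left out, all but that without CD3-CD8- replicate 5, and Tcf7 in 2 of them, those without CD3+CD8- replicate 18 or 6. Bcl11b, which fixes T lineage identity, had 139, 91.3 and 99.4 CPM in CD3+CD8- cells, against 47.5, 36.5 and 18.1 CPM in CD3-CD8- cells, without overlap and with an adjusted p of 0.0697. Tcf7 and Lef1 were the 2 called of 12 T lineage transcription factors, of which 0 fell and whose median was 0.29. The others did not pass, among them Gata3, Satb1 and Tox (edgeR adjusted p = 0.309, 0.144 and 0.74) and Ets1, Runx3 and Id2. Why they did not was not tested.

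Of 16 genes known from naive or central memory T cells, 4 rose, 0 fell and the median was 0.54. Nsg2 had 82.9, 64.1 and 122 CPM in CD3+CD8- cells, against 10.01, 8.07 and 6.81 CPM in CD3-CD8- cells. Its log2 fold change of 3.42 ± 0.31 (adjusted p = 0.00245) was called in all 6 fits that leave out a library. Actn1, an actin crosslinker, had 143, 111 and 141 CPM in CD3+CD8- cells, against 38.0, 43.5 and 66.1 CPM in CD3-CD8- cells (1.42 ± 0.27, adjusted p = 0.0434). Il7r, the receptor for the survival cytokine interleukin 7, had 645, 560 and 369 CPM in CD3+CD8- cells, against 236, 81.1 and 60.1 CPM in CD3-CD8- cells, with an adjusted p of 0.107. Ccr7, a chemokine receptor for homing to lymph nodes, overlapped, at 110, 61.7 and 141 CPM in CD3+CD8- cells against 144, 179 and 127 CPM in CD3-CD8- cells. Leaving out a library left between 1 and 4 members of this list called higher, the fewest without CD3-CD8- replicate 5, and without CD3+CD8- replicate 6 it was 3, with 1 member lower.

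The T cell receptor complex and its signalling chain gave a single call. Of 25 members, 1 rose (Cd28), 0 fell, 7 lay above without overlap and the median log2 fold change was 0.67. Trac, the constant region of the receptor alpha chain, had 355, 258 and 445 CPM in CD3+CD8- cells, against 229, 183 and 90.4 CPM in CD3-CD8- cells, without overlap and with an adjusted p of 0.22. Prkcq, the protein kinase C of the T cell synapse, had 251, 232 and 221 CPM in CD3+CD8- cells, against 132, 100 and 88.8 CPM in CD3-CD8- cells (1.13 ± 0.23, adjusted p = 0.0532). Lck, the kinase that phosphorylates CD3, overlapped, with 354, 187 and 590 CPM in CD3+CD8- cells against 419, 421 and 201 CPM in CD3-CD8- cells. Summed over the list, CD3+CD8- libraries held 5541, 4987 and 8342 CPM, against 4917, 4259 and 2512 CPM in CD3-CD8- libraries. Variable segments of the beta chain summed to 347, 474 and 595 CPM in CD3+CD8- cells, against 234, 236 and 132 CPM in CD3-CD8- cells, and 2 of 20 tested of 35 listed rose. Of the alpha chain, 18 of 128 segments had enough counts to be tested and 1 rose. EdgeR called 1 beta and 0 alpha segments without CD3+CD8- replicate 6. Without any of the other libraries 0 beta segments were, and the alpha call was kept without CD3+CD8- replicate 18 alone. In the receptor complex list, 24 members had a positive and 1 a negative log2 fold change with all 6 libraries, and 19 and 6 without CD3+CD8- replicate 6.

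Genes that mark smaller T cell subsets gave few calls. Cd163l1, which encodes the scavenger receptor SCART1 of gamma-delta T cells, had 4.44, 4.53 and 5.00 CPM in CD3+CD8- cells, against 0.278, 0.264 and 0.359 CPM in CD3-CD8- cells. It rose by 3.93 ± 0.43 on the log2 scale (edgeR adjusted p = 0.00563), with CD3-CD8- replicates 1 and 18 at the level of 3 counts. It was the 1 called of 8 gamma-delta genes tested. Of these 8, 3 had a positive and 5 a negative log2 fold change, and the median was -0.093. Trdc, the delta constant region, overlapped, with 45.9, 78.4 and 12.2 CPM in CD3+CD8- cells against 30.1, 8.36 and 14.9 CPM in CD3-CD8- cells. Il18r1, a receptor chain for interleukin 18, rose by 1.32 ± 0.26 (adjusted p = 0.0487) as the 1 called of 8 type 1 helper genes, and lost its call in each of the 6 fits with a library left out. Tbx21 and Ifng, the defining factor and cytokine of type 1 cells, overlapped between the fractions. Zbtb16, the factor of natural killer T cells, overlapped too, with 12.2, 11.9 and 1.67 CPM in CD3+CD8- cells against 13.5, 7.90 and 6.33 CPM in CD3-CD8- cells. Il17a, Il17f, Il22 and Il23r, of type 17 cells, and Il5 and Il13, of type 2 cells, had too few counts to be tested.

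Some genes listed for T cell subsets were lower in CD3+CD8- cells. Cxcr5, the receptor that takes follicular helper T cells and B cells to follicles, had 18.3, 7.67 and 14.4 CPM in CD3+CD8- cells, against 132, 195 and 150 CPM in CD3-CD8- cells. It fell by 3.55 ± 0.36 on the log2 scale (edgeR adjusted p = 0.00408), and stayed called in all 6 fits that leave out a library. Ccr6, a chemokine receptor of type 17 cells and B cells, had 5.50, 7.32 and 5.00 CPM in CD3+CD8- cells, against 23.7, 36.9 and 42.2 CPM in CD3-CD8- cells (-2.52 ± 0.32, adjusted p = 0.0115). Btla, an inhibitory receptor of T and B cells, fell by 1.84 ± 0.30 (adjusted p = 0.0286) and was the 1 called of 21 genes of inhibitory receptors and exhaustion tested, of which 2 fell without CD3+CD8- replicate 6. Pdcd1, which encodes PD-1, had 71.3, 17.8 and 210.0 CPM in CD3+CD8- cells, against 38.1, 132 and 13.2 CPM in CD3-CD8- cells. Havcr2, which encodes TIM-3, and Lag3 overlapped too.

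**Figure D3:**
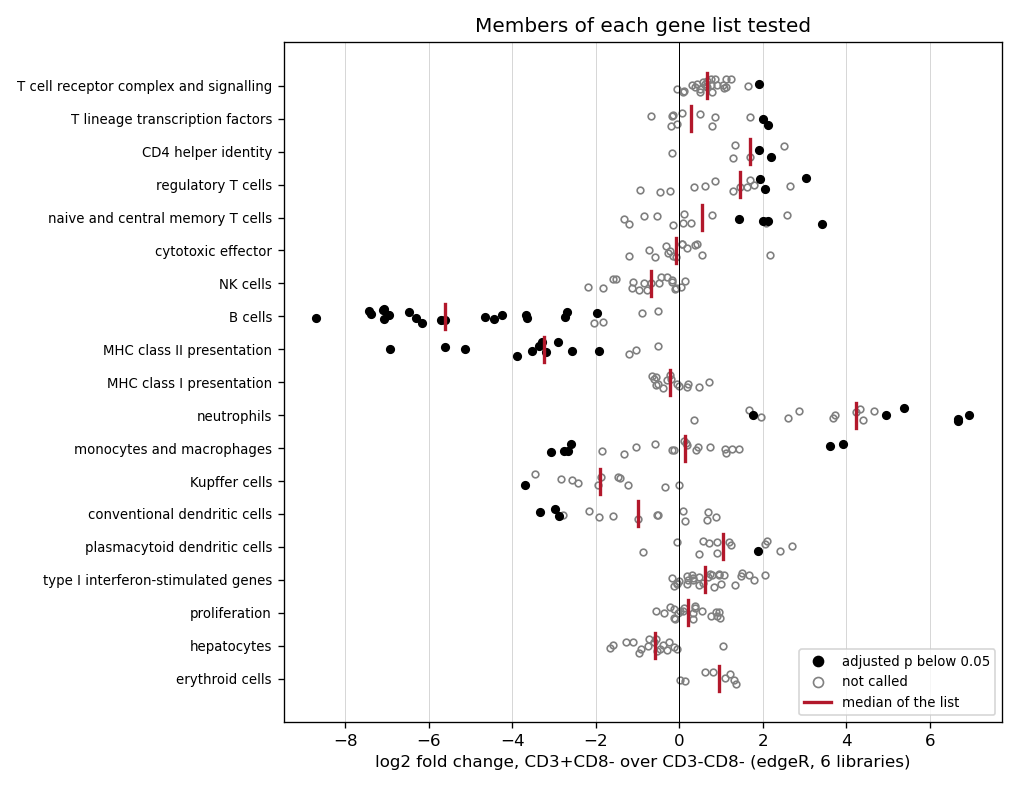
log2 fold change of CD3+CD8- over CD3-CD8- cells for every tested member of 19 gene lists; filled points passed an edgeR adjusted p of 0.05, open points did not, and red bars are list medians. B cell and MHC class II members lie to the left, neutrophil members to the right, and most other lists straddle 0.

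B cell genes were lower in CD3+CD8- cells, with the lowest median of the lists named here. Of 25 members, 21 fell, 0 rose, 24 lay below without overlap, and the median log2 fold change was -5.62. Cd79a, the signalling partner of surface immunoglobulin, had 4.44, 1.39 and 3.89 CPM in CD3+CD8- cells, against 325, 526 and 507 CPM in CD3-CD8- cells. It fell by 7.09 ± 0.48 on the log2 scale (edgeR adjusted p = 0.000712). Ms4a1, which encodes CD20, had 3.19, 9.76 and 5.00 CPM in CD3+CD8- cells, against 800, 766 and 795 CPM in CD3-CD8- cells. Pax5, the factor that commits cells to the B lineage, had 1.60, 2.44 and 2.22 CPM in CD3+CD8- cells, against 217, 362 and 457 CPM in CD3-CD8- cells.

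Receptors of mature B cells followed. Fcer2a, the low-affinity IgE receptor CD23, had 1.60, 2.09 and 1.67 CPM in CD3+CD8- cells, against 200, 345 and 339 CPM in CD3-CD8- cells. Cr2, complement receptor CD21, had 1.77, 1.74 and 2.78 CPM in CD3+CD8- cells, against 163, 154 and 161 CPM in CD3-CD8- cells. Both fell without overlap, by 7.37 ± 0.37 and by 6.31 ± 0.27 on the log2 scale. The widest log2 fold change of the list was that of Fcmr, the receptor for IgM, at -8.69 ± 0.46, with 0.710, 0.697 and 1.67 CPM in CD3+CD8- cells, about the level of 3 counts or less, against 261, 431 and 445 CPM in CD3-CD8- cells. Ighd, the constant region of IgD, had 6.57, 9.76 and 11.7 CPM in CD3+CD8- cells, against 698, 1224 and 1492 CPM in CD3-CD8- cells. Ighm, that of IgM, stayed at 679, 469 and 491 CPM in CD3+CD8- cells, against 2341, 3992 and 4158 CPM in CD3-CD8- cells (-2.68 ± 0.41, adjusted p = 0.0214). Cd24a, Bcl11a, Btk and Spib were the 4 members that did not pass, and why they did not was not tested. Leaving out a library left between 18 and 23 members called, with 23 and a median of -5.52 without CD3+CD8- replicate 6.

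Genes of antibody-secreting cells gave few calls. Of 13 members, 1 fell: Mzb1, a chaperone of B and plasma cells, with 12.8, 9.76 and 4.44 CPM in CD3+CD8- cells, against 79.0, 118 and 106 CPM in CD3-CD8- cells (-3.43 ± 0.38, adjusted p = 0.00585). Jchain, which joins secreted IgA and IgM, had 632, 696 and 101 CPM in CD3+CD8- cells, against 133, 669 and 618 CPM in CD3-CD8- cells, with a log2 fold change of 0.01 ± 0.78. Sdc1, the plasma cell surface protein CD138, had 4.26, 3.49 and 1.67 CPM in CD3+CD8- cells, against 7.97, 13.4 and 11.6 CPM in CD3-CD8- cells, with an adjusted p of 0.0895. Variable segments of the immunoglobulin kappa chain summed to 987, 1111 and 151 CPM in CD3+CD8- cells, against 1115, 2145 and 2372 CPM in CD3-CD8- cells, and 14 of 81 tested fell. For heavy chain segments 5 of 73 fell and for lambda segments 2 of 3. With a library left out, between 1 and 12 kappa segments were called, 1 without CD3-CD8- replicate 1 or 5 and 12 without CD3+CD8- replicate 6, and between 0 and 6 heavy chain segments, 6 of them without CD3+CD8- replicate 6.

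MHC class II genes, which present antigen to helper T cells and are carried by B cells, dendritic cells and some macrophages, were lower in CD3+CD8- cells. Of 14 members, 11 fell, 0 rose, 12 lay below without overlap and the median log2 fold change was -3.24. MHC class II promoters are known to carry an X box and a Y box, on which the transactivator CIITA acts. The stretch before the start of 6 members is therefore printed, with any core letters of either box in capitals. The letters searched were GATTGG or CCAATC for the Y box and AGCAAC or GTTGCT for the X box, on both strands of 250 bases before each start, and the 150 bases next to the start are shown, from RefSeq on GRCm38.p6. All lie on chromosome 17: H2-Aa on the minus strand at chr17:34287824-34287973, and on the plus strand H2-Eb1 at chr17:34305717-34305866, H2-Eb2 at chr17:34325525-34325674, H2-Oa at chr17:34092229-34092378, H2-Ob at chr17:34238755-34238904 and H2-DMb2 at chr17:34145099-34145248.
H2-Aa: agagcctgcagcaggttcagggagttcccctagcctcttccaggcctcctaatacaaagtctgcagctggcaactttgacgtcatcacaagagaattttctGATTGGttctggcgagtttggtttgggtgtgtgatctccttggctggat
H2-Eb1: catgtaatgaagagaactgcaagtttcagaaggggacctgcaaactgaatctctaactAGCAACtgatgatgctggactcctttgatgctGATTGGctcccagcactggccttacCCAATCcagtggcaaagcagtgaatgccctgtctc
H2-Eb2: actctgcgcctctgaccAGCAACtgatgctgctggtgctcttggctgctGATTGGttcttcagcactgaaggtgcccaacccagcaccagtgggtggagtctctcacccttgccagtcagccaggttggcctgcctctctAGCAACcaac
H2-Oa: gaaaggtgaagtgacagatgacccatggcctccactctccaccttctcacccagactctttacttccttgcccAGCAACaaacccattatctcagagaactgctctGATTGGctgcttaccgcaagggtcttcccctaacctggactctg
H2-Ob: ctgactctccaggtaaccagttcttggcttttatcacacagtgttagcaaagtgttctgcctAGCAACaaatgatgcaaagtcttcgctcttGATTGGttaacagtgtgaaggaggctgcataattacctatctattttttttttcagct
H2-DMb2: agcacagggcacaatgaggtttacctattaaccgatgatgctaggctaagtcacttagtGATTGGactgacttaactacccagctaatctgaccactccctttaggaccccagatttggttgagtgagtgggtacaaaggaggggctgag
The Y box letters occurred in 8 of 11 members with a promoter in the table, against 16.6% of all 27025 genes with a promoter there. The X box letters occurred in 4 of 11, against 13.9%. The same search gave X box letters in 6 of 15 T cell receptor, 4 of 16 neutrophil and 3 of 17 B cell genes, so they were not particular to class II genes. Y box letters were found in 1 of 15, 1 of 16 and 2 of 17 of these. In H2-Eb1, H2-Oa and H2-Ob the Y box letters began 60, 44 and 58 bases before the start and the X box letters 92, 77 and 88 bases before it. H2-Eb1 had a second Y box match 35 bases before the start. In H2-Eb2 the Y box letters began at 101 bases and the X box letters at 133 and 10 bases. The printed stretches of H2-Aa and H2-DMb2 held no X box letters. H2-DMb1 was not printed, nor was H2-DMa, whose promoters held neither set of letters in their 150 bases. These matches describe the letters in this window alone.

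The classical class II chains and their regulators fell. H2-Aa, the I-A alpha chain, had 484, 437 and 227 CPM in CD3+CD8- cells, against 2210, 2870 and 3503 CPM in CD3-CD8- cells. It fell by 2.90 ± 0.43 on the log2 scale (edgeR adjusted p = 0.0201). H2-Ab1, its beta chain, had 199, 133 and 134 CPM in CD3+CD8- cells, against 1373, 1886 and 1489 CPM in CD3-CD8- cells (-3.35 ± 0.34, adjusted p = 0.00408). H2-Eb1, an I-E beta chain, fell by 3.53 ± 0.41 (adjusted p = 0.00715). Cd74, the invariant chain that guides class II through the cell, had 923, 408 and 452 CPM in CD3+CD8- cells, against 4306, 6701 and 6387 CPM in CD3-CD8- cells (-3.29 ± 0.51, adjusted p = 0.0234). Ciita had 29.99, 10.1 and 13.9 CPM in CD3+CD8- cells, against 139, 190 and 177 CPM in CD3-CD8- cells (-3.19 ± 0.42, adjusted p = 0.0125).

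The peptide-loading chains differed in the size of their change. H2-DMb2 had 2.48, 4.18 and 1.11 CPM in CD3+CD8- cells, against 236, 376 and 370 CPM in CD3-CD8- cells, a log2 fold change of -6.92 ± 0.46 (edgeR adjusted p = 0.000712). H2-DMb1, its near copy, had 31.4, 19.9 and 16.1 CPM in CD3+CD8- cells, against 77.7, 95.5 and 87.0 CPM in CD3-CD8- cells (-1.93 ± 0.28, adjusted p = 0.019). H2-Ob and H2-Oa, which make up the H2-O inhibitor of loading found in B cells, fell by 5.12 ± 0.40 and by 3.89 ± 0.36. The proteases Ctss and Lgmn and the reductase Ifi30 were the 3 members not called. Between 8 and 11 members stayed called when a library was left out, with 11 and a median of -3.10 without CD3+CD8- replicate 6, and H2-Aa lost its call in each of the other 5 fits. MHC class I genes, which nearly all cells carry, had 0 of 15 called by edgeR, DESeq2, limma voom or limma on log2(FPKM + 1), 0 at an unadjusted edgeR p below 0.05 and a median of -0.23. For the ligands of costimulation, Cd40, the receptor through which helper T cells activate B cells and dendritic cells, had 8.52, 4.88 and 2.78 CPM in CD3+CD8- cells, against 45.8, 65.6 and 51.2 CPM in CD3-CD8- cells (-3.23 ± 0.39, adjusted p = 0.00889). Icosl, the ligand of ICOS, fell by 2.06 ± 0.31 (adjusted p = 0.0214), while Cd80, Cd86 and Cd274, the last encoding PD-L1, did not pass.

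**Figure D4:**
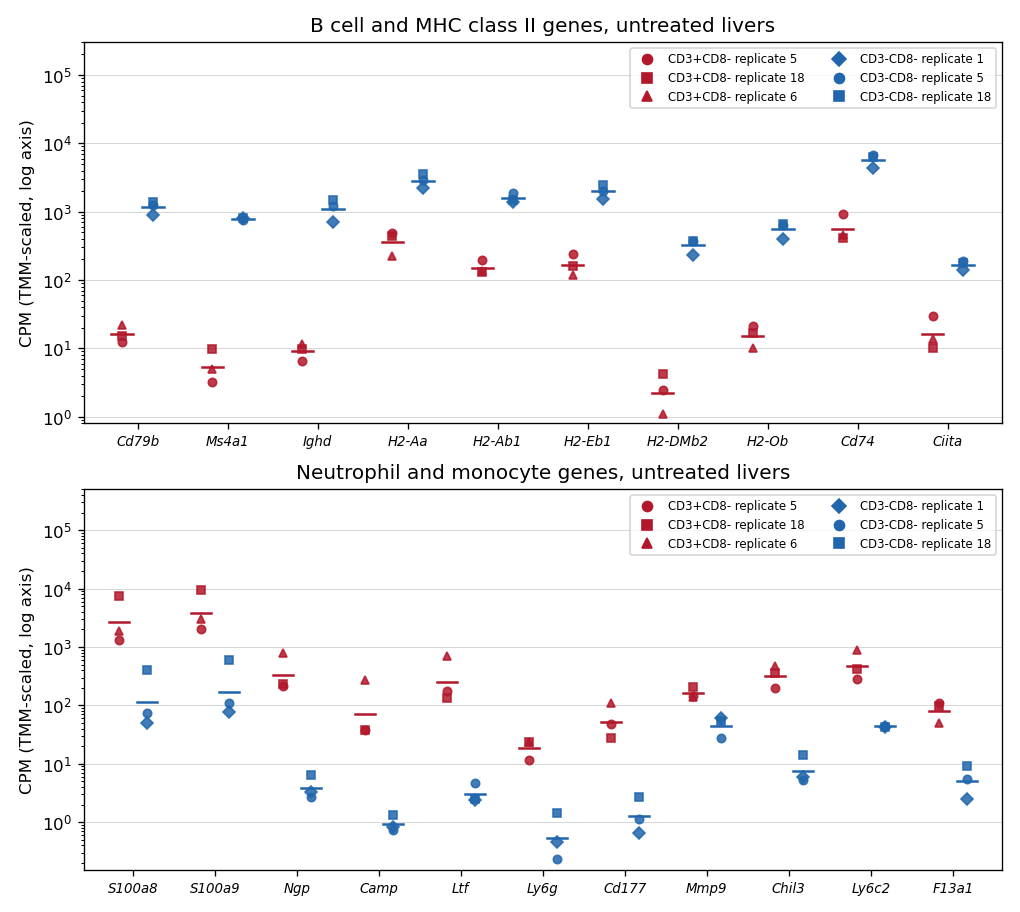
Level in every library of B cell and MHC class II genes (top) and of neutrophil and monocyte genes (bottom), in CPM after TMM scaling on a log axis, CD3+CD8- cells in red and CD3-CD8- cells in blue; points are libraries, triangles are CD3+CD8- replicate 6 and bars are geometric means of 3. No gene shown overlaps between the fractions, and CD3+CD8- replicate 18 has the highest S100a8 and S100a9.

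Neutrophil genes were higher in the libraries labelled CD3+CD8-, although a CD3+ gate is not meant to hold neutrophils. Of 17 members tested of 18 listed, 6 rose, 0 fell, 16 lay above without overlap and the median log2 fold change was 4.23. Ngp, neutrophilic granule protein, had 211, 230.0 and 795 CPM in CD3+CD8- cells, against 3.24, 2.68 and 6.45 CPM in CD3-CD8- cells. It rose by 6.67 ± 0.74 on the log2 scale (edgeR adjusted p = 0.00599) and stayed called in all 6 fits that leave out a library. Camp, which encodes the antimicrobial peptide cathelicidin, had 37.8, 37.3 and 271 CPM in CD3+CD8- cells, against 0.834, 0.727 and 1.31 CPM in CD3-CD8- cells (6.95 ± 1.01, adjusted p = 0.018). Ltf, lactoferrin, had 179, 132 and 713 CPM in CD3+CD8- cells, against 2.41, 4.73 and 2.51 CPM in CD3-CD8- cells (6.68 ± 0.81, adjusted p = 0.00903). In these granule genes CD3+CD8- replicate 6 was the highest library.

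Surface and effector genes of neutrophils showed another order of libraries. Ly6g, the usual neutrophil surface marker of mouse, had 11.7, 24.1 and 23.9 CPM in CD3+CD8- cells, against 0.463, 0.231 and 1.43 CPM in CD3-CD8- cells (4.95 ± 0.71, adjusted p = 0.0179). Cd177, an adhesion protein of neutrophils, rose by 5.39 ± 0.72 (adjusted p = 0.0137), and Mmp9, a gelatinase, by 1.77 ± 0.34 (adjusted p = 0.0449). S100a8, a partner in the calcium-binding protein calprotectin, had 1328, 7363 and 1894 CPM in CD3+CD8- cells, against 49.8, 73.6 and 402 CPM in CD3-CD8- cells. Its groups did not overlap, both replicate 18 libraries were the highest of their fraction, and it missed the threshold (4.33 ± 1.08, adjusted p = 0.0945). S100a9, its partner, Csf3r, the receptor for granulocyte colony-stimulating factor, and Cxcr2, the receptor for neutrophil-attracting chemokines, likewise did not overlap and did not pass. Mpo, of early granules, was low in all libraries, with 2.13, 0.349 and 2.22 CPM in CD3+CD8- cells against 0.371, 2.05 and 1.08 CPM in CD3-CD8- cells, and Elane had too few counts. Leaving out a library left between 1 and 8 members called: 1 without CD3-CD8- replicate 1, 2 without CD3-CD8- replicate 5, 3 without CD3+CD8- replicate 5, 4 without CD3+CD8- replicate 18, 7, with a median of 4.10, without CD3+CD8- replicate 6 and 8 without CD3-CD8- replicate 18. Summed over the list, CD3+CD8- libraries held 5528, 21660 and 8493 CPM, against 371, 386 and 1540 CPM in CD3-CD8- libraries. The part of neutrophil transcripts in the other genes higher in CD3+CD8- cells was not tested.

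Monocyte and macrophage genes went both ways. Of 22 members, 2 rose, 4 fell and the median was 0.15. Ly6c2, a surface protein of inflammatory monocytes that some T cells also carry, had 287, 425 and 904 CPM in CD3+CD8- cells, against 43.1, 45.2 and 43.0 CPM in CD3-CD8- cells (3.62 ± 0.45, edgeR adjusted p = 0.0107). F13a1, coagulation factor XIII of monocytes, had 111, 96.2 and 49.4 CPM in CD3+CD8- cells, against 2.50, 5.45 and 9.08 CPM in CD3-CD8- cells (3.93 ± 0.53, adjusted p = 0.0137). C1qa, a chain of complement C1q made by tissue macrophages, had 8.69, 13.6 and 22.8 CPM in CD3+CD8- cells, against 68.7, 125 and 172 CPM in CD3-CD8- cells (-3.06 ± 0.47, adjusted p = 0.0213). C1qb and C1qc fell by 2.66 ± 0.45 and by 2.75 ± 0.51. Cd300e, an activating receptor of monocytes, fell by 2.60 ± 0.41. Lyz2, lysozyme of myeloid cells, overlapped at 3164, 3165 and 1534 CPM in CD3+CD8- cells against 930, 1027 and 1635 CPM in CD3-CD8- cells. No member of this list fell in the fits without CD3+CD8- replicate 5 or CD3-CD8- replicate 5, and none rose without CD3-CD8- replicate 5. Without CD3+CD8- replicate 6, 3 rose and 5 fell.

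Kupffer cell genes had 1 of 12 called, lower, and a median of -1.90. Without CD3+CD8- replicate 18 the median was -3.38 with 2 called lower, without CD3+CD8- replicate 6 it was -1.504 with 1, and without CD3+CD8- replicate 5 or CD3-CD8- replicate 5 edgeR called 0. Marco, a scavenger receptor, had 0.710, 1.74 and 0.556 CPM in CD3+CD8- cells, levels of few counts, against 13.35, 12.99 and 13.03 CPM in CD3-CD8- cells. Clec4f, the lectin that marks Kupffer cells, had 5.15, 54.02 and 10 CPM in CD3+CD8- cells, against 89.3, 106 and 296 CPM in CD3-CD8- cells, without overlap and with an adjusted p of 0.165. Replicate 18 was the highest library of both fractions for Clec4f. Of 15 genes of conventional dendritic cells, 3 fell and 9 lay below without overlap, with a median of -0.99. Wdfy4, needed for cross-presentation, had 61.0, 41.5 and 29.4 CPM in CD3+CD8- cells, against 261, 342 and 379 CPM in CD3-CD8- cells (-2.88 ± 0.33, adjusted p = 0.00685). Ccl22, a chemokine of mature dendritic cells, had 1.95, 2.09 and 1.11 CPM in CD3+CD8- cells, against 13.1, 11.5 and 18.4 CPM in CD3-CD8- cells, and Fscn1, an actin-bundling protein of mature dendritic cells, also fell. Xcr1 and Clec9a, of cross-presenting dendritic cells, did not pass, though Clec9a rose without CD3+CD8- replicate 6 (1.32, adjusted p = 0.0446). The dendritic cell list then had 1 member higher and 4 lower, and with another library left out between 1 and 2 lower.

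Genes of plasmacytoid dendritic cells, the main makers of type I interferon, had 1 of 14 called and a median of 1.04. The called member was Runx2, a factor for their egress from marrow, with 126, 85.0 and 45.0 CPM in CD3+CD8- cells, against 21.4, 26.1 and 21.8 CPM in CD3-CD8- cells (1.89 ± 0.37, edgeR adjusted p = 0.0473). Siglech, their defining surface lectin, had 308, 557 and 63.3 CPM in CD3+CD8- cells, against 55.5, 36.8 and 51.6 CPM in CD3-CD8- cells, with a log2 fold change of 2.69 ± 0.68 (adjusted p = 0.0991). Replicate 6 was the lowest CD3+CD8- library for both. Without it, 5 members rose, Siglech among them (3.15, adjusted p = 0.0119), and without any of the other 5 libraries 0 were called. Of 10 genes of mast cells, basophils and eosinophils tested, 3 fell (Mcpt8, Fcer1a and Gata2), all below the level of 3 counts in every CD3+CD8- library. They kept a call in few fits with a library left out: Mcpt8 and Gata2 without CD3+CD8- replicate 6 and Fcer1a in none. Fcer1a, the IgE receptor of basophils and mast cells, had 0.177, 0.697 and 0 CPM in CD3+CD8- cells, against 26.2, 5.16 and 7.89 CPM in CD3-CD8- cells.

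NK cell and killer cell genes gave 0 calls in edgeR's test of all 6 libraries. Over 19 NK genes the median log2 fold change was -0.67, with 5 below and 0 above without overlap, and over 15 cytotoxic genes it was -0.09. At an unadjusted p below 0.05 edgeR gave 2 NK and 1 cytotoxic gene, DESeq2 called 1 of each list, limma voom 0 and 1, and limma on log2(FPKM + 1) 0 of both. Ncr1, the NK receptor NKp46, had 87.3, 116 and 8.33 CPM in CD3+CD8- cells, against 260, 171 and 213 CPM in CD3-CD8- cells, without overlap and with an adjusted p of 0.336. Xcl1, a chemokine of NK and CD8 T cells, had 33.4, 62.7 and 45.0 CPM in CD3+CD8- cells, against 283, 101 and 113 CPM in CD3-CD8- cells, with an adjusted p of 0.0961. Gzma, a granule protease, had 357, 453 and 857 CPM in CD3+CD8- cells, against 1167, 1608 and 1088 CPM in CD3-CD8- cells (-1.21 ± 0.41, adjusted p = 0.192), and passed without CD3+CD8- replicate 6 (-1.69, adjusted p = 0.0392). Replicate 6, with its CD8 transcripts, had the highest Gzma, Gzmb and Ccl5 of the CD3+CD8- libraries, and without it the median of the cytotoxic list was -0.76. Gzmb had 166, 282 and 783 CPM in CD3+CD8- cells, against 915, 483 and 437 CPM in CD3-CD8- cells.

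Among 17 chemokines tested of 30 listed, Cxcl2 rose and Ccl22 fell. Of the 6 fits that leave out a library, Cxcl2 kept its call in 2 and Ccl22 in 4. Cxcl2, which attracts neutrophils through CXCR2, had 55.7, 131 and 25.6 CPM in CD3+CD8- cells, against 3.98, 2.91 and 5.98 CPM in CD3-CD8- cells (4.08 ± 0.63, edgeR adjusted p = 0.0226). Of 18 chemokine receptors, the 2 called were Cxcr5 and Ccr6, described above. These 2 also fell without CD3+CD8- replicate 6, and 3 others rose in that fit, Ccr1 (3.85, adjusted p = 0.0458), Ccr4 (1.74, adjusted p = 0.0462) and Ccr9 (2.51, adjusted p = 0.0383). Among 23 cytokines tested of 30 listed, 1 rose and 2 fell, and 2 rose and 4 fell without CD3+CD8- replicate 6. Osm, oncostatin M, a cytokine of the interleukin 6 family, had 49.2, 38.0 and 28.9 CPM in CD3+CD8- cells, against 10.8, 12.3 and 11.3 CPM in CD3-CD8- cells (1.76 ± 0.26, adjusted p = 0.0202). Il12a, a chain of interleukin 12, had 0.355, 0 and 0 CPM in CD3+CD8- cells, against 5.19, 10.7 and 9.56 CPM in CD3-CD8- cells. Il6 had 0.177, 0.349 and 0 CPM in CD3+CD8- cells, against 3.61, 2.94 and 2.51 CPM in CD3-CD8- cells. Both levels in CD3+CD8- cells were below those of 3 counts. Osm kept its call in 2 of the 6 fits that leave out a library, Il12a in 4 of 6 and Il6 in 1 of the 4 that tested it. Il1b, an inflammatory cytokine of myeloid cells, had 880, 2366 and 264 CPM in CD3+CD8- cells, against 97.4, 71.0 and 181 CPM in CD3-CD8- cells, with an adjusted p of 0.0887, and it passed without replicate 6 (3.78, adjusted p = 0.0292).

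Of 32 cytokine receptors, 2 rose, Il18r1 and Il6st. Il6st, the gp130 chain through which interleukin 6 and oncostatin M signal, had 141, 91.7 and 101 CPM in CD3+CD8- cells, against 42.3, 42.7 and 45.8 CPM in CD3-CD8- cells (1.35 ± 0.22, edgeR adjusted p = 0.0293). It stayed called without CD3+CD8- replicate 18 or 6 and in none of the other 4 such fits. Of 21 Toll-like receptors and adaptors, 1 fell: Tlr3, the endosomal sensor of double-stranded RNA, had 2.31, 3.83 and 2.78 CPM in CD3+CD8- cells, against 15.01, 9.35 and 11.2 CPM in CD3-CD8- cells (-2.01 ± 0.38, adjusted p = 0.0435), and was called in 1 of the 6 fits with a library left out, that without replicate 6. In that fit Tlr2 (1.85, adjusted p = 0.0363) and Tlr13 (2.33, adjusted p = 0.049) rose, and the median of the list was 0.60, beside 0.21 with all 6 libraries. The cytosolic sensors of RNA and DNA had 0 of 13 called by edgeR, with 4 at an unadjusted p below 0.05, while DESeq2 and limma voom each called 4 and limma on log2(FPKM + 1) 0. EdgeR called 2, both higher, without CD3+CD8- replicate 6. Ifih1, the sensor MDA5, had 55.7, 93.4 and 38.3 CPM in CD3+CD8- cells, against 27.4, 20.4 and 33.2 CPM in CD3-CD8- cells, without overlap and with an adjusted p of 0.143.

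Further lists overlapped with those already described or gave few calls. Of 15 complement and scavenger receptor genes, 5 fell (C1qa, C1qb, C1qc, Cr2 and Marco), and between 1 and 5 did so with a library left out. Of 14 transcription factors of the B and myeloid lineages, 3 fell (Pax5, Ebf1 and Pou2af1), all of them B lineage factors, and Pou2af1, the octamer coactivator of B cells, had a log2 fold change of -4.64. Fcrla, an Fc receptor-like protein inside B cells, was the 1 called of 10 Fc receptor and adaptor genes. Spp1, osteopontin, had 33.9, 38.7 and 21.7 CPM in CD3+CD8- cells, against 8.06, 11.1 and 11.95 CPM in CD3-CD8- cells (1.61 ± 0.30, edgeR adjusted p = 0.044). Of the fits with a library left out, only that without CD3+CD8- replicate 6 kept its call. Spp1, which macrophages also express, was the 1 called of 4 tested genes of bile duct cells, whose median was -0.375. The other 3, Epcam, Krt8 and Krt18, had log2 fold changes of -0.466, -0.809 and -0.284. Of 10 lysosomal proteases and 6 NADPH oxidase subunits edgeR called 0 with all 6 libraries, with 2 and 0 at an unadjusted p below 0.05. DESeq2 called 1 of these proteases, limma voom and limma on log2(FPKM + 1) none. Cyba, a membrane subunit of the oxidase, fell without CD3+CD8- replicate 6 (-1.89, edgeR adjusted p = 0.0444).

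Type I interferon-stimulated genes had 0 of 28 called in edgeR's test, a median of 0.63 and 13 members above without overlap. The unadjusted edgeR p was below 0.05 for 10, which, like the other counts at that level, lacks a share over all genes to set it against. DESeq2 and limma voom each called 3, beside 974 and 790 of all 12719 genes, and limma on log2(FPKM + 1) called 0. Mx1, an antiviral GTPase, had 68.1, 53.0 and 43.3 CPM in CD3+CD8- cells, against 27.0, 24.2 and 27.97 CPM in CD3-CD8- cells (1.06 ± 0.23, adjusted p = 0.0697). Without CD3+CD8- replicate 6, 2 members passed, Mx1 among them (1.18, adjusted p = 0.0383). Isg15 overlapped, with 18.99, 36.6 and 60.0 CPM in CD3+CD8- cells against 38.2, 30.4 and 29.5 CPM in CD3-CD8- cells. Of 20 proliferation genes edgeR called 0, with 5 at an unadjusted p below 0.05, DESeq2 called 2, limma voom 1 and limma on log2(FPKM + 1) 0, and the median was 0.22. Mki67, the marker of cycling cells, had 132, 170 and 155 CPM in CD3+CD8- cells, against 78.4, 80.6 and 76.6 CPM in CD3-CD8- cells (0.96 ± 0.19, adjusted p = 0.0537), without overlap, and it passed without replicate 6 (adjusted p = 0.0477). In that fit the median of the list was -0.26, with 6 members positive and 14 negative against 13 and 7 with all 6 libraries, and Mcm5, a subunit of the replication helicase, fell (-1.18, adjusted p = 0.0445). Of 16 immediate-early genes, which activation or cell handling can switch on, edgeR called 0 with all 6 libraries, with 6 at an unadjusted p below 0.05, DESeq2 called 5, limma voom 2 and limma on log2(FPKM + 1) 0, and 5 rose in edgeR's test without replicate 6. Fos, of the AP-1 factors, had 452, 308 and 124 CPM in CD3+CD8- cells, against 108, 76.1 and 58.2 CPM in CD3-CD8- cells, without overlap and with an adjusted p of 0.1.

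Outside these lists, the 15 widest log2 fold changes each way were taken among called genes with a symbol whose groups did not overlap and whose log2 CPM averaged 3 or more. Several of those that rose are known from monocytes and neutrophils. Chil3, the chitinase-like protein Ym1, had 195, 361 and 479 CPM in CD3+CD8- cells, against 5.84, 5.32 and 14.3 CPM in CD3-CD8- cells (5.36 ± 0.56, edgeR adjusted p = 0.00486). It stayed called in all 6 fits that leave out a library. Slfn4, a Schlafen gene of myeloid cells, rose by 4.99 ± 0.92, Ptgs2, the inducible cyclooxygenase, by 3.75 ± 0.62, Trem1, an amplifying receptor of monocytes and neutrophils, by 3.16 ± 0.57, and Thbs1, thrombospondin 1, by 3.06 ± 0.50. With a library left out, Slfn4 was called in 2 of the 6 fits, Ptgs2 and Trem1 in 1 each and Thbs1 in 3. Tdrp had 26.1, 16.0 and 26.1 CPM in CD3+CD8- cells, against 3.61, 2.68 and 3.59 CPM in CD3-CD8- cells (2.79 ± 0.33, adjusted p = 0.00806). The others that rose were Dhrs9, Crispld2, Gad1-ps, St8sia1, Ly6c1, Neb, Lilr4b, Ifitm6 and Lrp8, with log2 fold changes between 2.45 and 3.95.

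Of the 15 that fell, several are known from B cells. Chst3, a sulfotransferase of chondroitin, had 3.55, 4.18 and 2.22 CPM in CD3+CD8- cells, against 115, 189 and 212 CPM in CD3-CD8- cells (-5.65 ± 0.37, edgeR adjusted p = 0.000712). Rasgrp3, which activates Ras downstream of the B cell receptor, had 3.37, 5.93 and 2.22 CPM in CD3+CD8- cells, against 85.7, 109 and 121 CPM in CD3-CD8- cells. Iglc2, a lambda constant region, fell by 4.52 ± 0.44, Siglecg, an inhibitory lectin of B cells, by 3.81 ± 0.44, and Cd81, a tetraspanin, by 2.93 ± 0.38. Scd1, a fatty acid desaturase, had 9.58, 55.1 and 15.6 CPM in CD3+CD8- cells, against 335, 497 and 635 CPM in CD3-CD8- cells (-4.20 ± 0.69, adjusted p = 0.0286). Cd55, which protects cells from complement, had 45.4, 40.4 and 42.8 CPM in CD3+CD8- cells, against 294, 397 and 405 CPM in CD3-CD8- cells (-3.09 ± 0.24, adjusted p = 0.00113). The others that fell were Pik3c2b, Snn, Gga2, Snx8, Dennd5b, Cnn3, Il9r and Swap70, with log2 fold changes between -3.88 and -3.07. Chst3, Rasgrp3, Cd55, Siglecg and Iglc2 stayed called in all 6 fits with a library left out, Scd1 without CD3+CD8- replicate 18 or 6, and Cd81 in all but that without CD3+CD8- replicate 5.

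Transcripts of other cells moved with single libraries. Hepatocyte genes summed to 396, 4253 and 1056 CPM in CD3+CD8- cells, against 680, 666 and 6203 CPM in CD3-CD8- cells, so both replicate 18 libraries were high. With all 6 libraries 0 of 18 members were called in edgeR's test. Without CD3-CD8- replicate 18, 1 member, Hp, was called higher (edgeR adjusted p = 0.02). Erythroid genes summed to 419, 1364 and 14060 CPM in CD3+CD8- cells, against 1162, 3579 and 2953 CPM in CD3-CD8- cells, highest in replicate 6. Their median log2 fold change was 0.96 with all 6 libraries and -1.21, with 2 members lower, without replicate 6. Ribosomal protein genes summed to 45860, 64350 and 157000 CPM in CD3+CD8- cells, against 137700, 109800 and 97910 CPM in CD3-CD8- cells, with 0 of 83 called with all 6 libraries and 15 of 85 lower without replicate 6. For hepatocyte, erythroid and ribosomal protein genes, 0 members had an unadjusted edgeR p below 0.05, and DESeq2, limma voom and limma on log2(FPKM + 1) called 0 with all 6 libraries. The part of these transcripts in the comparison was not tested, beyond the count of 279 calls when hepatocyte, erythroid, immunoglobulin and mitochondrial genes were removed before scaling.

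**Figure D5:**
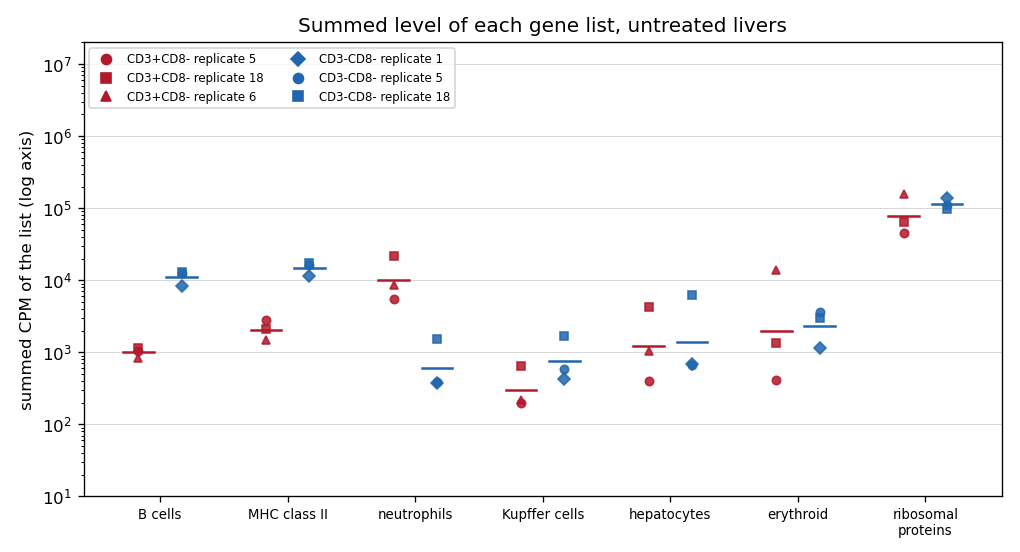
Summed level of 7 gene lists in every library, in CPM after TMM scaling on a log axis, CD3+CD8- cells in red and CD3-CD8- cells in blue; points are libraries, triangles are CD3+CD8- replicate 6 and bars are geometric means of 3. B cell, MHC class II and neutrophil sums separate the fractions, hepatocyte sums are high in both replicate 18 libraries, and erythroid and ribosomal sums are highest in CD3+CD8- replicate 6.

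The same fractions of treated livers gave 224 calls of 13158 genes (1.7%) in a fit of their own 6 libraries. Of the 293 untreated calls, 279 were tested there and 272 had the same sign. The share of all genes with the same sign in both fits is not given here. In treated livers 112 of these calls were also called with the same sign, which is 38.2% of the untreated and 50% of the treated calls. Foxp3 had log2 fold changes of 2.27 ± 0.44 in treated livers and 2.05 ± 0.38 in untreated livers, and Cd79a of -5.16 ± 0.47 in treated and -7.09 ± 0.48 in untreated livers. Cd4 passed in treated livers (3.26 ± 0.38, edgeR adjusted p = 0.00326). Ngp had 2.15 ± 1.10 in treated livers (adjusted p = 0.398) and 6.67 ± 0.74 in untreated livers, and C1qa had -0.61 ± 0.47 in treated livers (adjusted p = 0.614) and -3.06 ± 0.47 in untreated livers. Cd8a fell by 5.78 ± 0.51 in treated livers (adjusted p = 0.000663), with a log2 fold change of 0.28 ± 1.56 in untreated livers with all 6 libraries.

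The difference between treated and untreated livers in this comparison was tested for 13181 genes in a fit of all 18 libraries, and 0 (0%) were called by edgeR, with 503 at an unadjusted p below 0.05 and the smallest adjusted p at 0.477. No other tool was run for this difference. Among genes whose log2 CPM averaged 3 or more, the smallest p belonged to Mx1, Xlr4c, Vmp1, Gzmb and Zfp945. Of these 5, the log2 fold changes, untreated minus treated, were 1.63 ± 0.32, 2.36 ± 0.49, 1.69 ± 0.35, 2.80 ± 0.66 and 1.56 ± 0.39. For Ngp the difference was 4.56 and for C1qa -2.38, neither called.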

How the data were processed

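RNA of sorted liver CD45+ cells was made into TruSeq libraries, per the labels' protocols. The authors deposited whole-number counts per gene and an FPKM table; Cufflinks 2.2.1, HTSeq 0.13.5, DESeq2 3.20 and Trim Galore 0.6.7 were used, per the submitters' processing notes. For aligner and genome build: not given in the sources used here. Of 40 library columns 22 were not used. The deposited FPKM table gave symbols for 48242 identifiers, a gene name reference for another 194, and 4 had none. The 6 untreated libraries were fitted with edgeR 4.0.16 (R 4.3.3; filterByExpr, TMM, quasi-likelihood F-test, two-sided, no covariate), with Benjamini-Hochberg adjustment over all genes tested and calls at an adjusted p below 0.05. SE is the log2 fold change divided by the root of F. The interaction was tested over 18 libraries. Alternatives used DESeq2 1.42.0 and limma 3.58.1. Genes were named by a rule: the sort markers, the first 4 and the 4 of smallest p of each list, and the 15 widest changes each way outside them. Lck, Trac, Ciita, Cd74, Ighm, Ighd, H2-DMb1, Il1b, Csf3r, Mpo, Runx3, Id2 and members named as not passing, or as called without CD3+CD8- replicate 6 alone, were chosen after their values were seen. The members, lists and promoter motifs were chosen with earlier results of these data known. Total counts of 1829155 to 26835919 per library limit the precision of low genes, and the level of 3 counts covers counting error only.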

Additional observations from a re-analysis of the deposited data

How the results depend on the processing

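With a library left out the 293 calls became 70 to 777, with 5 to 384 higher and 65 to 393 lower; no setting reversed a called gene. The total and both directions stayed within 1.5 times with DESeq2 size factors, library totals, the stricter filter, lane, and immunoglobulin, erythroid, hepatocyte and mitochondrial genes removed. In the other settings the total or a direction did not: 1229 without a filter (582 higher, 647 lower), 974 with DESeq2 (536, 438), 790 with limma voom (499, 291), 145 with the 9 untreated libraries (71, 74), 417 with all 18 libraries (225, 192), 242 on log2(FPKM + 1) (64, 178) and 416 with a GC offset (199, 217). The median of all genes moved to -0.163 without a filter and to -0.136 on log2(FPKM + 1), against -0.014. Of 93 named called genes, the 9-library fit lost 45, and leaving out CD3-CD8- replicate 5 lost 53. Of 646 list medians under these settings, 37 had another sign. The cause was not tested. Cd8a had log2 fold changes from -4.988 to 0.84 and Cd8b1 from -2.569 to 1.511 with a library left out; Cd8a was -0.109 without CD3-CD8- replicate 18. Cd8a and Cd8b1 were -4.042 and -1.741 with limma voom, -2.863 and -0.833 with lane, and -2.278 and -0.844 on log2(FPKM + 1). The difference between treated and untreated livers stayed at 0 called in each setting run.

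Numbers 5 and 18 occur in both fractions, and the labels do not say that they mark an animal. Deviations of same-numbered libraries correlated at 0.396 and 0.557. Deviations were not correlated between libraries of different numbers, but log2 CPM itself was correlated for every pair. CD3+CD8- replicate 5 correlated at 0.8872 with CD3-CD8- replicate 5, and at 0.8781 and 0.8551 with CD3-CD8- replicates 1 and 18. CD3+CD8- replicate 18 correlated at 0.8709 with CD3-CD8- replicate 18, and at 0.8293 and 0.8196 with CD3-CD8- replicates 1 and 5. Whether a number links libraries was not tested. The replicate block gave 3074 calls (1259 higher, 1815 lower), 3245 on the 4 libraries numbered 5 and 18 (1344, 1901) and 2358 with the GC offset (1320, 1038), with Cd8a at -4.726, -4.758 and -4.806 and Cd8b1 at -2.371, -2.393 and -2.137. With so few residual degrees of freedom these counts say nothing of stability.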
